A study of Mus musculus with 8 samples.

Results

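The genes examined here encode the core of the desmosome, and Perp. They were taken by name: the rows of the deposited count table whose gene name is Dsp, Jup, Pkp1, Pkp2, Pkp3, Dsg2, Dsg3, Dsc2, Dsc3 or Perp. Each name matched 1 row, so that 10 of the 54532 genes in the table were members, and all 10 were among the 16440 genes that passed the filter on low counts. The rule used names alone, but the members were chosen with earlier results of these data known.

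Desmosomes are spot-like junctions that tie the keratin filaments of neighbouring epithelial cells together. Desmosomal cadherins, the desmogleins (Dsg genes) and desmocollins (Dsc genes), bridge the gap between cells, the armadillo proteins plakoglobin (Jup) and the plakophilins (Pkp genes) bind their tails, and desmoplakin (Dsp) links this plaque to keratin. Perp, a tetraspan membrane protein first described as a p53 target and also controlled by p63, is needed for desmosome assembly in stratified epithelia and has been studied in the enamel organ, where desmosomes join ameloblasts to the stratum intermedium.

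Enamel organs were dissected from first molars of untreated wt C57BL/6 pups at postnatal day 5 (P5, the secretory stage) and day 12 (P12, the maturation stage). Each library was made from the polyadenylated RNA of a pool of 5 pups, with n = 4 libraries per age, numbered 1, 3, 4 and 5 at P5 and 1, 2, 3 and 4 at P12. Both ages shared genotype, strain and dissection, and differed only in age as far as the labels say. Dental pulp was cleared away beforehand, but cells other than the enamel epithelium could still contribute RNA.

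Libraries held from 16574548 to 20262601 counts at P5 and from 17588152 to 22013456 at P12. The floor, set here at 3 counts, was 0.136 to 0.181 CPM. All 4 secretory ameloblast markers fell at P12 and all 5 maturation markers rose, and Epcam, Krt5 and Krt14 of the 8 epithelial markers rose while Krt8, Krt15 and Krt17 fell. The summed normalized count of 12 markers of stratified oral mucosa ranged from 1230 to 1994 at P5 and from 44100 to 66730 in P12 libraries 1 to 3, but was 13650 in P12 library 4, which stood apart from the others. Mesenchyme and bone markers were present at both ages, with sums of 1029000 to 1226000 at P5 and 901300 to 1169000 at P12. Of these 8 genes 3 rose (Col3a1, Ibsp and Sp7) and 2 fell, and with total-count scaling 5 rose and 0 fell. The endothelial sum was 2627 to 3243 at P5 and 5435 to 5891 at P12, with all 6 genes called higher. Of the marker genes of skeletal muscle 5 of 6 fell, and 4 of 5 for leukocytes and 3 of 4 for Schwann cells rose. The part of these cells in the results below was not tested. Since these are bulk samples, fewer cells of a type and less RNA per cell cannot be told apart.

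Desmosome genes were higher in the maturation stage. Of the 10 members, 9 rose at P12 and Perp did not pass the test, beside 28.8% of all genes tested that were called higher and 28.4% called lower (edgeR's quasi-likelihood fit, adjusted p under 0.05). No member was called lower by edgeR, DESeq2 or limma-voom (0 of 10), and 0 were lower at an unadjusted p under 0.05. The rises were far from equal, from 1.22-fold for Pkp3 to 16.2-fold for Dsg3. In log2 units the members' median change was 1.23, against 0.01 over all genes tested. Scaling by total count instead called 8885 genes higher and 2330 lower and moved the median of all genes to 0.38, and relative to that median the members ranged from 0.24 for Perp to 4.01 for Dsg3. In 8 of the 10 members every P12 library lay above every P5 library, which held for 26.0% of all genes tested, and Pkp3 and Perp were the exceptions. Values below are normalized counts, that is counts scaled to a common effective library size.

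**Figure D1:**
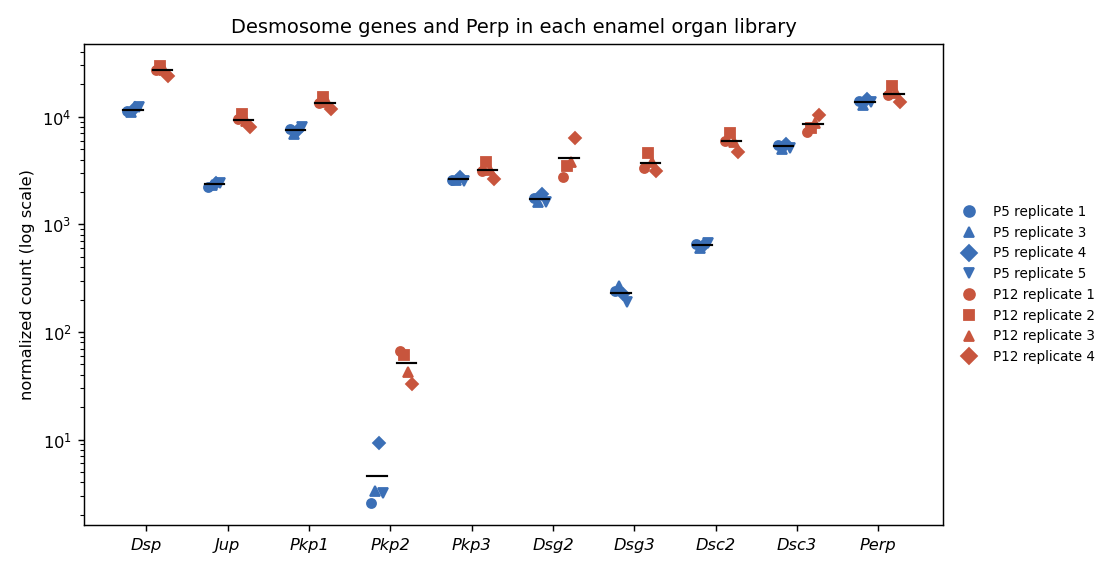
Normalized count (log axis) of each member in each of the 8 libraries, with P5 and P12 points side by side and 1 marker shape per replicate number. The 2 ages separate in every member but Pkp3 and Perp, with the widest gaps in Dsg3, Pkp2 and Dsc2.

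Dsp (ENSMUSG00000054889), the cytolinker of the plaque, lies on the forward strand of chromosome 13 (GRCm38) from 38151294 to 38198577, and 5.2% of its exonic bases are shared with Gm10129 on the opposite strand, a gene with at most 9 counts in any library. Jup (ENSMUSG00000001552), which also serves in adherens junctions, lies on chromosome 11 from 100368958 to 100397763 on the reverse strand and shares none of its exonic bases (0.0%). The 250 bases upstream of their RefSeq starts are shown for these 2 plaque genes. They were read from the RefSeq promoter table of build GRCm38.p6, in which only these 2 of the 10 members matched, and run 5′ to 3′ on the gene's strand. Capitals mark GC boxes (GGGCGG on either strand). The Dsp window is chr13:38151044-38151293 on the forward strand and the Jup window is chr11:100397791-100398040 on the reverse strand.
Dsp promoter: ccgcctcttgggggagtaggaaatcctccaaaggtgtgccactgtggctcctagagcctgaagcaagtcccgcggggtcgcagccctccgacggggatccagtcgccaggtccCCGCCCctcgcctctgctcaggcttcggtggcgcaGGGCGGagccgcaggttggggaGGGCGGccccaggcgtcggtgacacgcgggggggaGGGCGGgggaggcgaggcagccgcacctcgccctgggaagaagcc
Jup promoter: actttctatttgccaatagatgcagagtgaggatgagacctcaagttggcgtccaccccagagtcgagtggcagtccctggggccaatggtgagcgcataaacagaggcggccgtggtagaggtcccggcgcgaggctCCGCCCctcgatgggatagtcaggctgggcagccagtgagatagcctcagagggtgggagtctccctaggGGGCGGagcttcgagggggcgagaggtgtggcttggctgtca
The Dsp window was 72.4% G or C and held 4 GC boxes. The Jup window was 62.0% G or C and held 2 GC boxes, as well as 2 CACCC boxes (CACCC), which the Dsp window did not hold. Over all 32851 promoters of the table the median was 52.4% G or C, 32.7% held a GC box and 52.0% held a CACCC box. On both strands neither window held an E-box (CANNTG, in 66.2% of promoters), an AP-1 site (TGANTCA, 6.75%), a TATA box (TATAAA, 12.4%) or a Grainyhead site (AACNGGTT, 1.79%). These matches describe letters only.

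The normalized count of Dsp in P5 libraries 1, 3, 4 and 5 was 11296, 11063, 11926 and 12296, and in P12 libraries 1 to 4 it was 27402, 29688, 26968 and 24130. The ages did not overlap, with means of 11645 ± 566 (SD, n = 4) and 27047 ± 2281 (SD, n = 4). The log2 fold change was 1.22 (standard error 0.09, 95% interval 1.03 to 1.40), or 2.32-fold, with a Benjamini-Hochberg adjusted p = 4.4e-07 from edgeR's fit. Jup was at 2241, 2325, 2435 and 2441 in the P5 libraries and at 9453.5, 10552, 9107 and 8072 in the P12 libraries. It too separated the ages, and its rise was steeper: 3.94-fold, or 1.98 in log2 units (standard error 0.09, edgeR adjusted p = 1.23e-08), from 2360.4 ± 95.8 to 9296 ± 1023 (SD, n = 4). Both genes kept step within an age, since the log2 ratio of Jup to Dsp ranged from -2.33 to -2.25 at P5 and from -1.58 to -1.49 at P12. That ratio differed between ages by 0.76 (exact permutation test, two-sided p = 0.0286, adjusted p = 0.0286 over 9 ratios between members), and 0.0286 is the smallest p that 4 libraries against 4 allow.

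The 3 plakophilins, which cluster the cadherins and recruit desmoplakin, differed in level and in response. Pkp1 (ENSMUSG00000026413, chromosome 1 from 135871395 to 135919207, reverse strand), the plakophilin of suprabasal cells in stratified epithelia, was at 7650.4, 6968, 7543 and 7950.0 in the P5 libraries and at 13513, 15245, 13639 and 11753 in the P12 libraries. The ages did not overlap, and Pkp1 rose 1.80-fold, or 0.85 in log2 units (standard error 0.09, edgeR adjusted p = 9.74e-06). Pkp3 (ENSMUSG00000054065, chromosome 7 from 141078218 to 141090510, forward strand), which is expressed in all layers of most epithelia, was at 2606, 2568, 2738 and 2540.3 at P5 and at 3141, 3756, 3204 and 2661 at P12. P12 library 4 lay within the P5 range, and the other P12 libraries lay above it. Pkp3 rose 1.22-fold, or 0.29 in log2 units (standard error 0.09, 95% interval 0.09 to 0.49, edgeR adjusted p = 0.0193), and the exact permutation test on its 8 libraries gave a two-sided p = 0.0571. This call was lost without P5 library 3 (edgeR adjusted p = 0.0552) and without P12 library 2 (adjusted p = 0.053).

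Pkp2 (ENSMUSG00000041957, chromosome 16 from 16213318 to 16272712, forward strand), the plakophilin of simple epithelia and heart, was near the floor at P5. It had 2, 3, 7 and 3 raw counts in the P5 libraries and 91, 73, 46 and 33 in the P12 libraries. As normalized counts these were 2.57, 3.35, 9.23 and 3.18 against 66.7, 61.6, 42.6 and 33.1. The ages did not overlap, and the fitted change was 11.2-fold, or 3.48 in log2 units with a wide 95% interval of 2.57 to 4.39 (edgeR adjusted p = 2.87e-05). Even at P12 it was 0.263% of the 3 plakophilins counted per kilobase of gene length, after 0.0383% at P5, so that the change concerned few reads. The gene with the most similar profile was Dpt, a matrix protein gene of connective tissue, with a root mean square difference of 0.174 in log2 units over 8 libraries. Col3a1, a collagen of loose connective tissue, was at 4108.5 to 4672 at P5 and at 86935, 64842, 35470 and 32390 in P12 libraries 1 to 4, a log2 fold change of 3.64 (edgeR adjusted p = 1.36e-06). The collagens Col1a1 and Col1a2 went the other way, with log2 fold changes of -0.34 and -0.36. Of the 8 mesenchyme and bone markers 3 rose and 2 fell, with a median log2 fold change of 0.20. Both Pkp2 and Col3a1 were highest in P12 library 1 and lowest in P12 library 4 among the P12 libraries, and the part of connective tissue in the Pkp2 result was not tested.

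The log2 ratio of Pkp1 to Pkp3 went from 1.53 ± 0.09 (SD, n = 4) at P5 to 2.09 ± 0.05 (SD, n = 4) at P12, with no overlap (exact permutation test, two-sided p = 0.0286, adjusted p = 0.0286 over 9 ratios). Per kilobase, Pkp1 made up 67.4% of the plakophilin total at P5 and 75.2% at P12, and Pkp3 made up 32.6% and 24.6%.

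The 4 cadherins included the members with the largest and some of the smaller rises. Dsg3 and Dsc2 rose most in well-counted genes, while Dsg2 and Dsc3, the more abundant desmoglein and desmocollin among the members at P5, rose less. All 4 lie in 1 cluster on chromosome 18 between 19960930 and 20604521.

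Dsg3 (ENSMUSG00000056632, 20510304 to 20541310, forward strand), a desmoglein of stratified epithelia and the antigen of pemphigus vulgaris, was at 239, 266, 227 and 189 in the P5 libraries and at 3311, 4648, 3821.5 and 3146.5 in the P12 libraries. Every P12 library was far above every P5 library. The means were 230.4 ± 31.8 and 3732 ± 675 (SD, n = 4), a 16.2-fold rise or 4.02 in log2 units (standard error 0.15, 95% interval 3.70 to 4.34, edgeR adjusted p = 3.5e-09). Dsc2 (ENSMUSG00000024331, 20030633 to 20059554, reverse strand), the desmocollin found in all tissues with desmosomes, was at 652, 601, 645 and 666 at P5 and at 5979.7, 7098, 5779.5 and 4735 at P12. It rose 9.20-fold, by a log2 fold change of 3.20 (standard error 0.12, 95% interval 2.95 to 3.46, edgeR adjusted p = 3.42e-09), again without overlap.

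Dsg2 (ENSMUSG00000044393, 20558074 to 20604521, forward strand), the desmoglein of simple and proliferating epithelia, was at 1759.9, 1622, 1903.5 and 1611 at P5 and at 2774, 3486.5, 3764 and 6375 at P12. The ages did not overlap, but P12 library 4 was far above the other P12 libraries. Dsg2 rose 2.38-fold, or 1.25 in log2 units (standard error 0.21, edgeR adjusted p = 0.000355), and without P12 library 4 the log2 fold change was 0.95 (edgeR adjusted p = 2.52e-06). Of its exonic bases, 4.0% are shared with Gm16090 on the opposite strand, which had at most 34 counts in any library. Dsc3 (ENSMUSG00000059898, 19960930 to 20002351, reverse strand), a desmocollin of basal and stratified epithelia, was at 5424, 5029.7, 5540.4 and 5168 at P5 and at 7196, 7785, 8655 and 10271 at P12. It rose 1.60-fold, by a log2 fold change of 0.68 (standard error 0.10, edgeR adjusted p = 0.000176), without overlap and with its highest count also in P12 library 4.

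The make-up of the cadherins changed with age. The log2 ratio of Dsg3 to Dsg2 was -2.87, -2.60, -3.06 and -3.08 in the P5 libraries and 0.255, 0.415, 0.02 and -1.02 in the P12 libraries, a difference of 2.82 between the means. That of Dsc3 to Dsc2 was 3.05, 3.06, 3.10 and 2.96 at P5 and 0.27, 0.13, 0.58 and 1.12 at P12, a difference of -2.52. Dsg3 thus went from well below Dsg2 to a similar count, and Dsc3 stayed above Dsc2 in every library but by less. The log2 ratio of Dsg3 to Dsc3 rose by 3.34 and that of Dsg2 to Dsc2 went from 1.42 to -0.58. None of these 4 ratios overlapped between ages (exact permutation test, two-sided p = 0.0286 each, adjusted p = 0.0286 over 9 ratios), and a ratio within a library does not depend on the scaling between libraries. The share of all gene pairs whose ratio separates the ages, a background for all 9 ratios, was not computed.

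**Figure D2:**
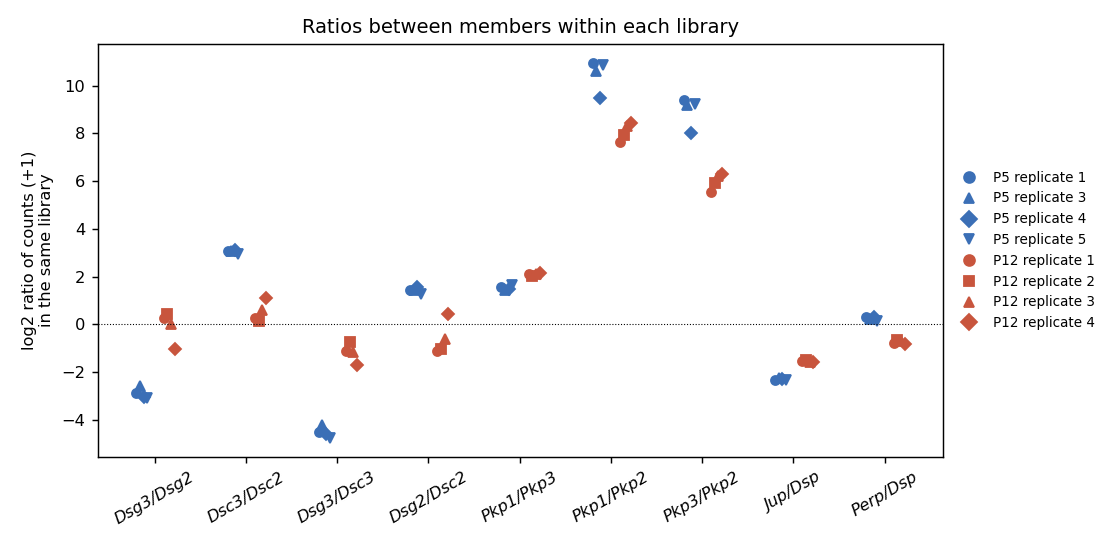
Log2 ratio of the counts (plus 1) of pairs of members within the same library, with 1 point per library. P5 and P12 libraries do not overlap in any of the 9 ratios, and the share of all gene pairs that separate the ages was not computed. Of the P12 libraries, replicate 4 lies nearest to the P5 libraries in all ratios but Pkp1/Pkp3 and Perp/Dsp, where it lies farthest.

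Divided by gene length and summed, the desmogleins went from 472 ± 18.3 normalized counts per kilobase at P5 to 1959 ± 202 at P12 and the desmocollins from 1102 ± 45.9 to 2721 ± 144 (SD, n = 4). Within these sums, Dsg2 went from 44.2% to 25.5% and Dsg3 went from 11.9% to 46.1%, with nearly all of the remainder in Dsg1a and Dsg1b. Dsc3 went from 88.9% to 57.6% and Dsc2 from 11.03% to 41.2%. In P12 library 4 the shares were 40.9% for Dsg2 and 40.6% for Dsg3, while in P12 libraries 1 to 3 Dsg2 was between 18.8% and 23.6% and Dsg3 between 45.3% and 50.4%. The desmoglein sum and all desmoglein shares rest on a table length of 4108 bases for Dsg3. With the 6978 exonic bases of GENCODE M21, a length chosen after seeing the data, Dsg3 went from 7.39% to 33.6%. Dsg2 then went from 46.45% to 31.4%, a share at P12 similar to that of Dsg3.

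**Figure D3:**
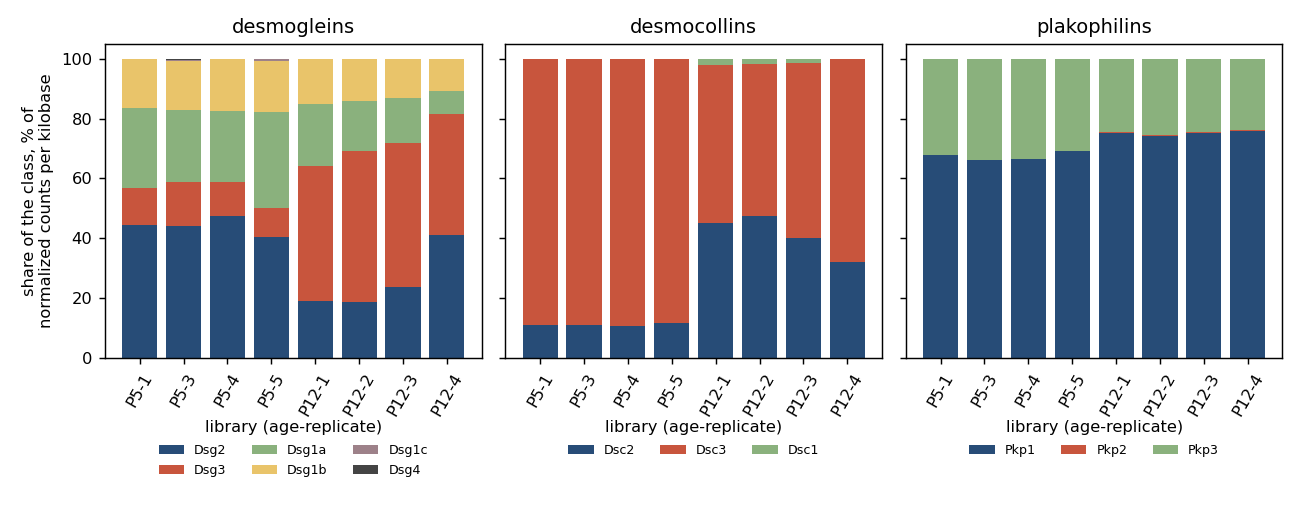
Share of each gene in the summed normalized counts per kilobase of the desmogleins, desmocollins and plakophilins, as stacked bars for each library (age-replicate). By its table length, Dsg3 takes 9.59% to 14.6% of the desmogleins in the P5 libraries and 40.6% to 50.4% in the P12 libraries. Dsc2 takes 10.6% to 11.7% and 32.0% to 47.4% of the desmocollins.

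Perp (ENSMUSG00000019851, chromosome 10 from 18845020 to 18857073, forward strand) was at 13851, 12900.0, 14585 and 13721 in the P5 libraries and at 15772, 19107, 16479 and 13746 in the P12 libraries. P12 library 4 lay within the P5 range and the other P12 libraries lay above it. The means were 13764 ± 690.1 and 16276 ± 2214 (SD, n = 4), and the log2 difference was 0.24 (standard error 0.10, 95% interval 0.02 to 0.46), which did not pass the threshold (edgeR adjusted p = 0.0572, exact permutation test two-sided p = 0.0857). Without P12 library 4 it passed, at a log2 fold change of 0.31 (edgeR adjusted p = 0.00453). The difference from Dsp was tested directly, and the log2 ratio of Perp to Dsp went from 0.24 ± 0.06 (SD, n = 4) to -0.74 ± 0.08 (SD, n = 4), without overlap (exact permutation test, two-sided p = 0.0286, adjusted p = 0.0286 over 9 ratios). Of 4 relatives of Perp in the same tetraspan group, Pmp22, known from myelin, was called lower with a log2 fold change of -0.55 (edgeR adjusted p = 0.000627), a call that was lost when libraries were scaled by total count (-0.17, adjusted p = 0.168), and the other 3 did not pass.

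**Figure D4:**
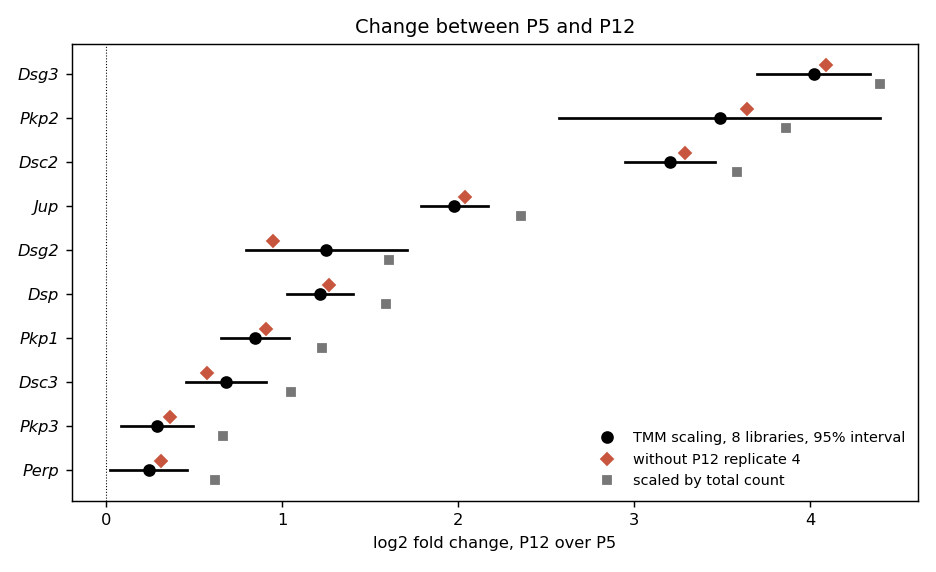
Log2 fold change of each member between P5 and P12 with its 95% interval (black), without P12 replicate 4 (red) and with libraries scaled by total count (grey). All 10 estimates are above 0 in each of the 3 settings, from 0.24 for Perp to 4.02 for Dsg3 in the first.

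Per kilobase of gene length, Perp was the most abundant member at both ages, with 7051 ± 353.5 normalized counts per kilobase at P5 and 8338 ± 1134 at P12 (SD, n = 4). At P5 the order after Perp was Pkp1 (1498), Dsp (1206), Dsc3 (979), Pkp3 (723), Jup (367), Dsg2 (208.5), Dsc2 (121.5), Dsg3 (56.1) and Pkp2 (0.855), and no neighbours in it overlapped. At P12 it was Dsp (2800.0), Pkp1 (2695), Dsc3 (1569), Jup (1444), Dsc2 (1118), Dsg3 (908), Pkp3 (882), Dsg2 (496) and Pkp2 (9.52). The ranges of Dsp and Pkp1 overlapped there, as did those of each pair of neighbours from Dsc3 to Dsg2. Compared within each library, Dsp was above Pkp1, Jup above Dsc2 and Dsc2 above Dsg3 in 4 of 4 P12 libraries, Dsg3 above Pkp3 and Pkp3 above Dsg2 in 3 of 4, and Dsc3 above Jup in 2 of 4. With the GENCODE M21 length, Dsg3 would come after Pkp3, at 534.8.

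The rise was not shared by all epithelial adhesion genes. Against Cdh1, the classical epithelial cadherin E-cadherin, all 10 members were higher at P12 within the same library, with log2 ratios that rose by between 0.54 for Perp and 4.31 for Dsg3 and no overlap between ages in any of the 10 (exact permutation test, two-sided p = 0.0286 each, adjusted p = 0.0286 over 10 ratios). Cdh1 itself was at 5191, 4807, 5485 and 5434 at P5 and at 3955, 4144, 4403 and 4380.4 at P12, a log2 fold change of -0.31 (edgeR adjusted p = 0.00223) that turned to 0.06 when libraries were scaled by total count. Its ages did not overlap either, so that a gene with an unchanged normalized count would also rise against it. Pkp3 and Perp separated the ages against Cdh1 but not in their own counts. The share of all genes whose ratio to Cdh1 separates the ages was not computed. Among 11 adherens junction genes, 6 rose, 4 fell and 1 did not pass, with a median log2 fold change of 0.17, and with total-count scaling 7 rose and 1 fell. The largest rises were Vcl (vinculin, 1.03, edgeR adjusted p = 6.03e-07) and Ctnna1 (alpha-catenin, 0.95, edgeR adjusted p = 7.48e-07), and the largest falls were Nectin4 (-1.02, edgeR adjusted p = 1.25e-06) and Cdh3 (P-cadherin, -0.42, edgeR adjusted p = 0.00156), of which Cdh3 lost its call under total-count scaling (-0.05).

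Of 10 other desmosome genes, 8 passed the count filter and 7 of them rose, 0 fell and Kazn did not pass (log2 fold change 0.01), with a median of 1.01. The largest rises were Dsc1 (4.72, edgeR adjusted p = 0.000368) and Cdsn, the corneodesmosin of cornifying epithelia (3.68, edgeR adjusted p = 0.00092). Both were much lower in P12 library 4 than in the other P12 libraries: Dsc1 was at 257.3, 256.5, 167 and 15.1 in P12 libraries 1 to 4 after 3.18 to 8.999 at P5, and Cdsn was at 460.4, 489, 337 and 30.1 after 11.6 to 43.5. Without that library the log2 fold changes were 5.09 and 4.05. Evpl (envoplakin), a plaque and cornified envelope protein, rose by a log2 fold change of 0.74 without overlap between ages. Its partner Ppl (periplakin) was called higher (0.47, edgeR adjusted p = 0.0427), but at 1191 to 1399 in the P5 libraries and 1963, 2109, 1814 and 1027 in P12 libraries 1 to 4 its ages overlapped (exact permutation test, two-sided p = 0.143). Of the 7 genes that rose, Cdsn, Ppl and Dsg1a (826 in P12 library 4 against 617 to 875 at P5) were within or below their P5 range in P12 library 4. In the cadherin cluster on chromosome 18 the table had 10 genes, 9 of them protein-coding. All 7 that were tested rose (Dsc3, Dsc2, Dsc1, Dsg1a, Dsg1b, Dsg3 and Dsg2), Dsg1c and Dsg4 had at most 10 and 9 counts in a library, and the antisense gene Gm16090 had at most 34. Dsg1a and Dsg1b are near-identical copies, so that their separate log2 fold changes of 1.23 and 1.69 are uncertain.

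Among 10 transcription factors of stratified epithelia, 6 rose, 1 fell and 3 did not pass, with a median log2 fold change of 0.53. Klf5 rose most among them, from 433 ± 30.4 to 3982 ± 502 (SD, n = 4), or by 3.20 in log2 units (edgeR adjusted p = 1.34e-09). Grhl3, a Grainyhead factor of epidermal differentiation, followed with 2.63 (edgeR adjusted p = 0.00483), from 7.41 to 16.8 at P5 to 99.7, 121, 74.1 and 7.03 in P12 libraries 1 to 4, so that P12 library 4 lay below the P5 range, and without it the log2 fold change was 2.997. Zfp750 fell, by 0.75 in log2 units (edgeR adjusted p = 0.000147). Trp63, which encodes the p63 that controls Perp in epithelia, was at 6858, 6733.5, 7237 and 7153 at P5 and at 4593, 5195, 6051 and 9411.5 at P12. It did not pass with all libraries (log2 fold change -0.15, edgeR adjusted p = 0.505, and 0.21 with total-count scaling), and without P12 library 4 it was lower at P12 (-0.41, edgeR adjusted p = 0.000926).

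P12 library 4 differed from the other P12 libraries for the members too. It held the lowest P12 value of 8 members, and the highest of Dsg2 and Dsc3, where 34.3% of all genes tested and 44.3% of those called higher had their lowest P12 value in it. Relative to the mean of P12 libraries 1 to 3 it had 58.1% of Pkp2, 75.3% of Dsc2, 79.0% to 86.1% of Pkp3, Dsg3, Perp, Pkp1, Jup and Dsp, 130% of Dsc3 and 191% of Dsg2. The 12 oral mucosa markers, all of which were called higher at P12 and lowest in P12 library 4 among the P12 libraries, were together at 24.7% in it, and 3 of them were there within or below their P5 range. In the same library Dsg3 was at 13.7 times its P5 mean, Dsc2 at 7.39, Pkp2 at 7.23, Dsg2 at 3.70, Jup at 3.42, Dsp at 2.07, Dsc3 at 1.94 and Pkp1 at 1.56, while Pkp3 and Perp were at 1.02 and 0.999. The mucosa sum in that library, 13650, was itself above the P5 range of 1230 to 1994, and the part of oral mucosa in the members' changes was not tested. Trp63 and the adherens gene Nectin3 were high in this library, as Dsg2 and Dsc3 were, at 1.78 and 1.68 times the mean of the other P12 libraries. The summed secretory ameloblast markers were high in it too, at 621700 against 237000 to 433600 in P12 libraries 1 to 3. The summed maturation markers were at 482600 against 357000 to 458300. The part of ameloblast stage in the members' changes was not tested.

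**Figure D5:**
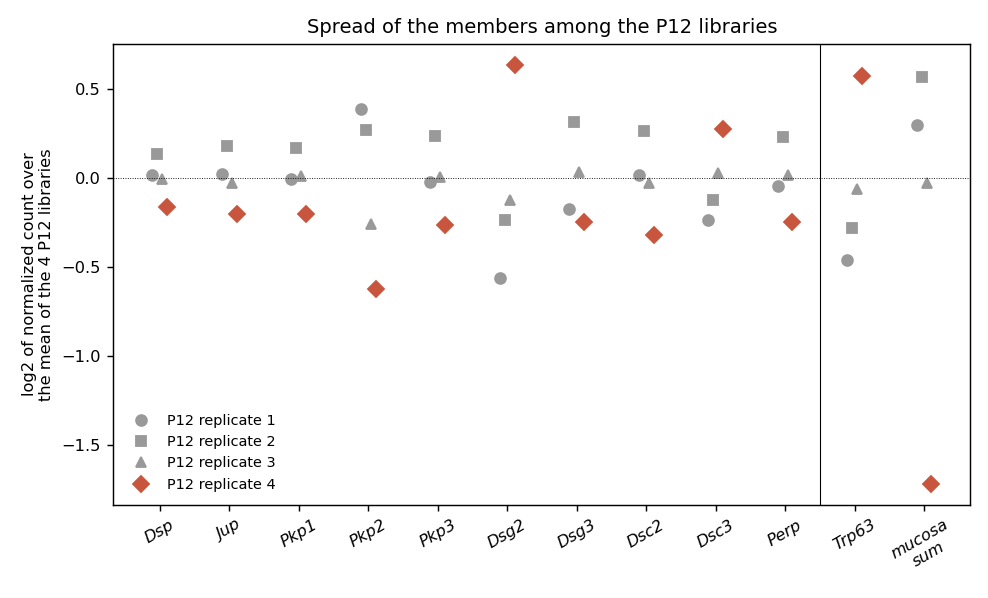
Log2 of the normalized count over the mean of the 4 P12 libraries, for the 10 members (left of the line) and for Trp63 and the summed oral mucosa markers (right), with P12 replicate 4 in red and the other P12 replicates in grey. Replicate 4 is lowest for 8 members and highest for Dsg2 and Dsc3.

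Over all 11336 tested genes with a mean normalized count of at least 100, the profiles most like those of the members belonged to genes of varied kinds, measured as the root mean square difference of centred log2 profiles over 8 libraries. Nearest to Dsg3 was S100a6 (0.154), and nearest to Dsc2 were Ctsc (0.142) and Casp1 (0.16). Jup was nearest to Tmem43 (0.049), Dsp to Zfp809 (0.055), Pkp1 to Rnh1 (0.06), Dsc3 to Usp32 (0.043) and Dsg2 to Hsd17b7 (0.087). Gnl3 and Pgls were among the 3 nearest genes of both Pkp3 and Perp, at 0.033 to 0.046. These likenesses are descriptions.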

How the data were processed

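RNA-seq was available for 8 libraries of first molar enamel organs, 4 at P5 and 4 at P12. The authors deposited raw read counts per gene, as whole numbers with no normalization, beside gene names, lengths and GRCm38 coordinates. The aligner, the counting program and its use of strand are not given in the sources used here, so that reads of genes on opposite strands that overlap cannot be told apart, and the submitters' processing notes list CASAVA and mm39, although the coordinates are those of GRCm38. Reads carried no molecular identifiers, and floors cover counting error only.

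The P12 and P5 counts were tested against each other with edgeR's quasi-likelihood functions (edgeR 4.0.16, R 4.3.3; TMM, glmQLFit, glmQLFTest) on age alone. P-values were adjusted by Benjamini-Hochberg across the 16440 genes left by filterByExpr, and 0.05 was the threshold. A normalized count is a count scaled to an effective library size of 19006280, the mean of the 8 libraries. Ratios within a library used log2 of the counts plus a pseudocount of 1 and were tested by exact permutation, two-sided, of the 8 libraries (70 splits into 4 and 4). Lengths come from the table, and shared exonic bases from GENCODE M21. Promoters were read from RefSeq (GRCm38.p6). The script was first tested on simulated data. None of the 12 pairs of libraries of the same age was alike within counting noise. Summaries used Python 3.11.15, numpy 2.4.6, pandas 2.3.3 and scipy 1.17.1, and plots used matplotlib 3.10.9.

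The text names all members, the 2 largest rises and 2 largest falls past the threshold in the lists of other desmosome genes, adherens junction genes, Perp relatives and epithelial transcription factors, the genes of the cadherin cluster, and the 3 genes most like each member in log2 profile, of which a selection is printed. Cdh1 is the reference of the ratios, marker genes are given by list, and Kazn, Evpl, Ppl, Trp63, Nectin3 and the single marker genes (Epcam, the Krt genes, Col1a1, Col1a2, Col3a1, Ibsp and Sp7) were named after their values were seen. Members and lists were chosen with earlier results of these data known. The alternatives were DESeq2 1.42.0 (the study's tool), limma-voom (limma 3.58.1), DESeq2 size factors, total-count scaling, other count filters and thresholds, other pseudocounts, each library left out in turn, and a block for the replicate number in the 6 libraries with a same-numbered partner at the other age.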

Additional observations from a re-analysis of the deposited data

Results flagged for a closer look

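P5 library 4 stood apart from the other P5 libraries in Pkp2, with a normalized count of 9.23 against 2.57 to 3.35, on 7 raw counts. The log2 ratio of Pkp3 to Pkp2 in that library was accordingly 8.02 against 9.17 to 9.40. Of 60 groups of 4 libraries looked at, these 2 held a distant library, and chance gives about 1 in 20, or 3.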

How the results depend on the processing

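No member changed direction under the 18 alternative settings. Between 6 and 10 members were called higher and 0 lower in all of them, with 6 where a log2 fold change of at least 1 was required and 10 with DESeq2. Pkp2 was not tested where at least 10 counts in every library were required. The Pkp3 call was lost without P5 library 3, without P12 library 2, at an adjusted p under 0.01, and in the 6 libraries with shared numbers, both with the replicate block (log2 fold change 0.18, adjusted p = 0.151 from edgeR) and without it (0.19, adjusted p = 0.0955). With that block 3867 genes of all tested were higher and 3843 lower, and 8 members were higher. Same-numbered libraries did not deviate together over all genes (correlations of 0.04, 0.01 and -0.04 for numbers 1, 3 and 4). No pairing by number was seen, but these 3 correlations cannot exclude a smaller shared effect. Perp was called with DESeq2 (adjusted p = 0.0277), limma-voom (0.048), total-count scaling (0.000428), no count filter (0.032) and without P12 library 4 (0.00453), and its adjusted p reached 0.289 in other settings. Over all genes, total-count scaling gave 8885 higher and 2330 lower, and a log2 fold change of at least 1 gave 1864 and 1677; in other settings both counts stayed within 1.5 times. With 1 library left out, the log2 fold change ranged from 0.95 to 1.39 for Dsg2, 0.57 to 0.75 for Dsc3 and 3.90 to 4.09 for Dsg3. The ratios kept their direction with pseudocounts of 0.5 and 5 and with each library left out, where 3 libraries against 4 allow no p below 0.0571. Depth limits Pkp2 most, with at most 7 counts at P5. The causes of these changes were not tested.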
